A study of Homo sapiens with 6 samples.

Results

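The genes described here encode the proteasome: its core subunits, the inducible immunoproteasome subunits, the regulatory particle, the activators and the assembly chaperones. They are the 47 entries of the count table whose symbol consists of PSM, a letter from A to G and a number, with IP1 allowed after it, out of 19201 entries in all. All 47 passed the filter on low counts, as did 19101 entries altogether, and the lowest member count in any library was 603. By subunit type they comprised 7 alpha and 7 constitutive beta subunits of the core, 3 inducible beta subunits, 6 ATPases, 8 lid subunits, 3 other subunits of the base, 3 chaperones of base assembly, 6 activators and their partners, and 4 chaperones of core assembly.

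RNA-seq gene counts were given for 3 libraries of H1299 cells that overexpress lncBCAS1-4_1, a long non-coding RNA (OE), and for 3 libraries of the same cells as wild type (Ctrl); H1299 is a cell line from a human non-small cell lung carcinoma. The labels name no vector, promoter, clone or treatment, and no vector for the wild-type cells, so the RNA and the procedure used to overexpress it cannot be told apart. In bulk RNA, fewer cells expressing a gene and less of its RNA per cell cannot be told apart either. Library totals ranged from 84531039 to 92780032 counts. Whether the replicates were separate cultures is not stated; every p-value therefore rests on the spread among these 6 libraries alone, and that spread may be technical. The epithelial keratins KRT18 and KRT8 reached 1230 to 1410 and 418 to 478 CPM (the count scaled to the TMM-adjusted library size) in OE libraries and 905 to 1040 and 353 to 388 CPM in Ctrl libraries. KRT7 had 4.39 to 5.90 CPM in OE and 2.64 to 2.98 CPM in Ctrl libraries and KRT19 was near 0, at 0.0948 to 0.211 and 0.106 to 0.224 CPM, while the epithelial markers EPCAM and CDH1 were not analysed here. Among leukocyte markers, which matter because blood cells carry the immunoproteasome constitutively, CD68, a lysosomal protein that other cells also make, was at 79.3 to 87.8 CPM in OE and 69.6 to 73.9 CPM in Ctrl libraries; PTPRC, CD3E, LYZ and CD74 were not analysed here. Summed levels of 3 fibroblast markers were 2.26 to 3.58 CPM in OE and 2.16 to 3.06 CPM in Ctrl libraries, and those of 3 endothelial markers 1.05 to 1.73 and 0.976 to 1.71 CPM.

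The proteasome degrades proteins that carry ubiquitin chains. Its core particle is a barrel of stacked alpha and beta rings, with the proteolytic sites on the beta subunits PSMB5 (chymotrypsin-like), PSMB6 (caspase-like) and PSMB7 (trypsin-like). The regulatory particle, made of an ATPase ring, further base subunits and a lid, binds ubiquitinated proteins, removes the ubiquitin and threads them into the barrel. Interferons, above all interferon gamma, induce PSMB8, PSMB9 and PSMB10, which take the places of PSMB5, PSMB6 and PSMB7 in newly built cores, together with the PA28 activator subunits PSME1 and PSME2; this immunoproteasome produces many of the peptides shown on MHC class I. The constitutive subunit genes are raised together by the transcription factor NFE2L1 (NRF1) when proteasome activity is short.

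Interferon-responsive members carry known control sequences close to their starts, and these are printed for that reason. The letters of an interferon-stimulated response element (ISRE), GAAA, any 2 bases and GAAA again, were searched on both strands of the RefSeq promoter windows, which run from 250 bases before to 50 bases after each annotated start (GRCh38.p14). Windows were matched for 41 of the 47 members, 51 windows in all. The letters stood in 7 of these 51 windows (13.7%), those of PSMB8, PSMB10, PSME1, PSME2, PSMB4, PSMA4 and PSMG4, against 3.57% of all 35116 windows, and in none of them did they overlap a match of the other motifs searched. The match is in capitals below, TTTC, any 2 bases and TTTC being the same letters read on the other strand. The stretches are chr6:32844042-32844101 on the minus strand for PSMB8 (from 54 bases before to 6 after the more downstream of its annotated starts), chr16:67936851-67936910 (minus) for PSMB10, chr14:24136149-24136208 (plus) for PSME1, chr14:24146611-24146670 (minus) for PSME2 and chr1:151399478-151399537 (plus) for the constitutive core gene PSMB4.
PSMB8: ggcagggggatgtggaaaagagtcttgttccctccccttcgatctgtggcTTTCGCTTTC
PSMB10: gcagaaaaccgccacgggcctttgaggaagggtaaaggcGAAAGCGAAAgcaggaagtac
PSME1: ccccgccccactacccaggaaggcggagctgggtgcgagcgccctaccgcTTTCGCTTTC
PSME2: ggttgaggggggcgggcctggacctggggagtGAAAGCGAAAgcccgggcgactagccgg
PSMB4: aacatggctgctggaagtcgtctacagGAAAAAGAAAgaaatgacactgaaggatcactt

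PSMB9 had no such match in its window. Its start lies back to back with that of the peptide transporter gene TAP1, with 487 bases between them, and the TAP1 window held the letters in 2 overlapping matches, at chr6:32853800-32853859 on the minus strand, inside that shared stretch.
TAP1: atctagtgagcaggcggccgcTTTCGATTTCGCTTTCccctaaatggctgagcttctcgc
A match describes the sequence only and shows no binding. TTCNNNGAA, the letters of a gamma-activated site, stood in 13.7% of member windows and 7.66% of all windows. TGANNNNGC, the core letters of the antioxidant response element bound by NFE2L1 and NFE2L2 with small MAF proteins, stood in 62.7% of member windows and 41.8% of all windows. CCAAT stood in 41.2% and 34.6%. Among the member windows, TGANNNNGC overlapped TTCNNNGAA in 1 place and CCAAT in 4 places.

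Most proteasome genes were slightly higher in OE cells. Of the 47, 27 were higher and 4 lower at an adjusted p under 0.05 by edgeR's quasi-likelihood test, with 16 not called. Over all entries tested the same rule called 18.3% higher and 19.7% lower, 38% in all. Those entries include ones with lower counts than any member. A stricter filter (CPM of at least 1 in at least 3 libraries) kept 14072 entries, of which 3660 were higher and 3788 lower. Under it 28 members were higher and 4 lower. Every OE library lay above every Ctrl library in CPM for 27 members and below every Ctrl library for 7, where this held for 24.7% and 26% of all entries. The changes were small: 46 of 47 were under 1.5-fold, the median log2 fold change was 0.14 over members and -0.0041 over all entries, and no member passed 2-fold, which 2.11% of entries did at the same adjusted p. Members together took 1.01%, 0.997% and 0.985% of all counts in OE libraries 1 to 3 and 0.905%, 0.895% and 0.904% in Ctrl libraries 1 to 3. With library size alone as scaling 22 members were higher and 7 lower, beside 2908 and 4274 of 19101 entries.

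Fold changes in these libraries followed the GC content of the transcripts, and proteasome genes did so too. The Spearman correlation of log2 fold change with GC content was 0.78 (Pearson 0.75) across the 47 members and 0.54 across 18968 entries, a description over genes that share the same 6 libraries. The inducible subunits had GC-rich transcripts of 52.41% to 61.72%, while PSMD12, PSMD5 and PSMA3, lower as fitted, had 37.49% to 40.70%. Once GC content and length of the transcript were entered for each library as offsets, here called the correction, 21 members were higher and 2 lower, where 11.5% and 11.1% of all entries were (22.6% together), with a median log2 fold change of 0.11 over members and -0.013 over all entries. A total of 17 members were higher in both fits and 1, PSME4, was lower in both. Over all 19101 entries tested, 1418 were higher in both fits and 1401 lower in both. The 17 members were also higher after a correction for GC content alone, chosen after seeing the data, under which 33 members were higher and 1 lower. Under it 2550 of all entries were higher and 2462 lower. Corrected values are given beside most members named below, and what produced the GC trend was not tested.

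**Figure D1:**
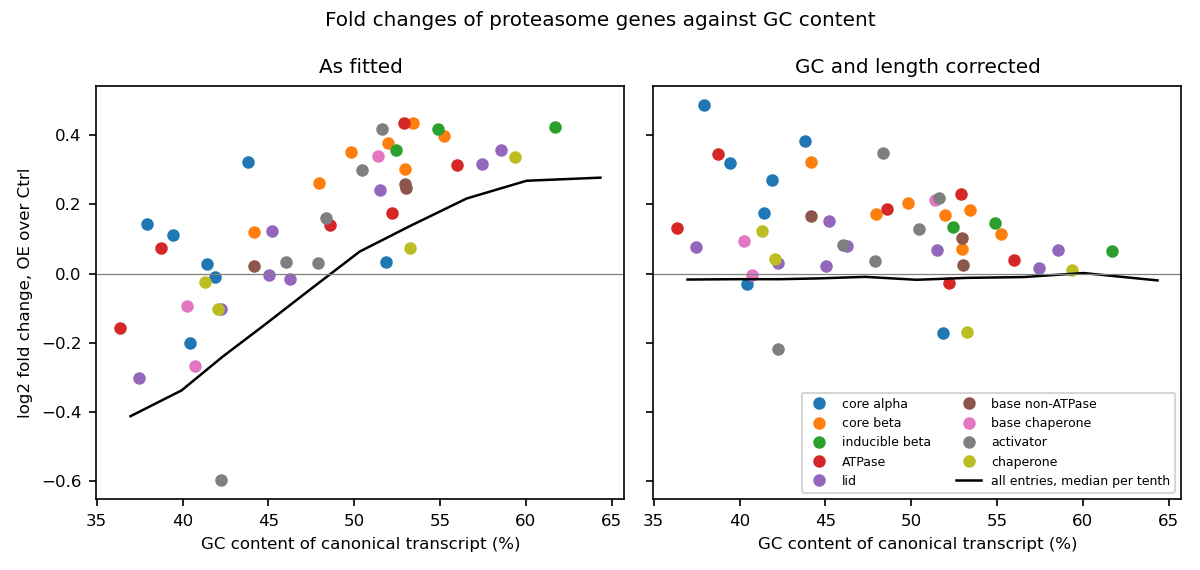
Log2 fold change (OE over Ctrl, vertical axis) of the 47 proteasome genes against the GC content of their canonical transcript (%, horizontal axis), as fitted (left) and after the GC and length correction (right); the black line is the median of all entries in each of 10 equal-sized bins of GC content. As fitted, the line climbs with GC content and most members lie above it; after the correction it is near 0 and 41 of 47 members have a log2 fold change above 0.

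Of the 3 inducible catalytic subunits, PSMB8 and PSMB10 rose, each by 1.34-fold, and PSMB9 did not pass the test. PSMB8 (ENSG00000204264), which takes the place of PSMB5, had 52.6, 48.3 and 47.8 CPM in OE libraries 1 to 3, against 34.9, 36.6 and 39.9 CPM in Ctrl libraries 1 to 3. All OE libraries were above all Ctrl libraries, and the log2 fold change of 0.42 (SE 0.07, adjusted p = 0.00131) corresponds to 1.34-fold. PSMB10 (ENSG00000205220), the counterpart of PSMB7, had 20.1, 17.2 and 16.1 CPM in OE libraries and 12.9, 11.9 and 15.1 CPM in Ctrl libraries. Its groups did not overlap either (1.34-fold, adjusted p = 0.0214), but the third OE library and the third Ctrl library lay close together, and the call was lost without OE library 1 (log2 fold change 0.33, adjusted p = 0.0884), Ctrl library 1 (0.40, adjusted p = 0.0721) or Ctrl library 2 (0.35, adjusted p = 0.0864).

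PSMB9 (ENSG00000240065), the counterpart of PSMB6, had 10.9, 9.60 and 8.41 CPM in OE libraries and 8.66, 7.14 and 6.71 CPM in Ctrl libraries. The lowest OE library was below the highest Ctrl library, and the log2 fold change of 0.36 (SE 0.14) did not pass (adjusted p = 0.0759), though it passed without OE library 3 (0.45, adjusted p = 0.0450) or Ctrl library 1 (0.47, adjusted p = 0.0444), with DESeq2 (adjusted p = 0.0266) and with a stricter filter on low counts (adjusted p = 0.0481). None of the 3 passed once corrected, with log2 fold changes of 0.15 for PSMB8 (adjusted p = 0.0505), 0.14 for PSMB9 (adjusted p = 0.530) and 0.066 for PSMB10 (adjusted p = 0.667). PSMB8 passed with GC content alone (0.24) and, corrected, without Ctrl library 3 (0.17, adjusted p = 0.0417). PSMB8 and PSMB9 point away from each other in the MHC region of chromosome 6, at 32840717 to 32844679 on the minus strand and 32844136 to 32859851 on the plus strand in GENCODE 44. These gene spans share 544 bases, but no exon bases of the canonical transcripts. The PSMB9 span contains TAP1 (32845209 to 32853816), and the RefSeq start of PSMB9 used above, at 32854192, lies beyond TAP1, away from PSMB8. PSMB10 lies on chromosome 16 from 67934506 to 67936864 on the minus strand, and 374 exon bases of it are shared with another entry of the table (ENSG00000261884), between which the counting could split reads.

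The constitutive catalytic subunits moved by similar amounts. PSMB5 had 281, 248 and 250 CPM in OE libraries against 206, 207 and 219 CPM in Ctrl libraries (1.23-fold, adjusted p = 0.00264). PSMB6 had 202, 183 and 181 CPM against 138, 139 and 153 CPM (1.32-fold, adjusted p = 0.000921). PSMB7 had 415, 403 and 376 CPM against 313, 308 and 314 CPM (1.28-fold, adjusted p = 0.000467). In each of these genes the OE libraries lay above all Ctrl libraries. Corrected log2 fold changes were 0.071 for PSMB5 (adjusted p = 0.230), 0.11 for PSMB6 (adjusted p = 0.0442) and 0.21 for PSMB7 (adjusted p = 0.00181), and the corrected call of PSMB6 was lost without OE library 1 (0.094, adjusted p = 0.116), OE library 3 (0.11, adjusted p = 0.0985), Ctrl library 1 (0.097, adjusted p = 0.164) or Ctrl library 2 (0.10, adjusted p = 0.154).

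**Figure D2:**
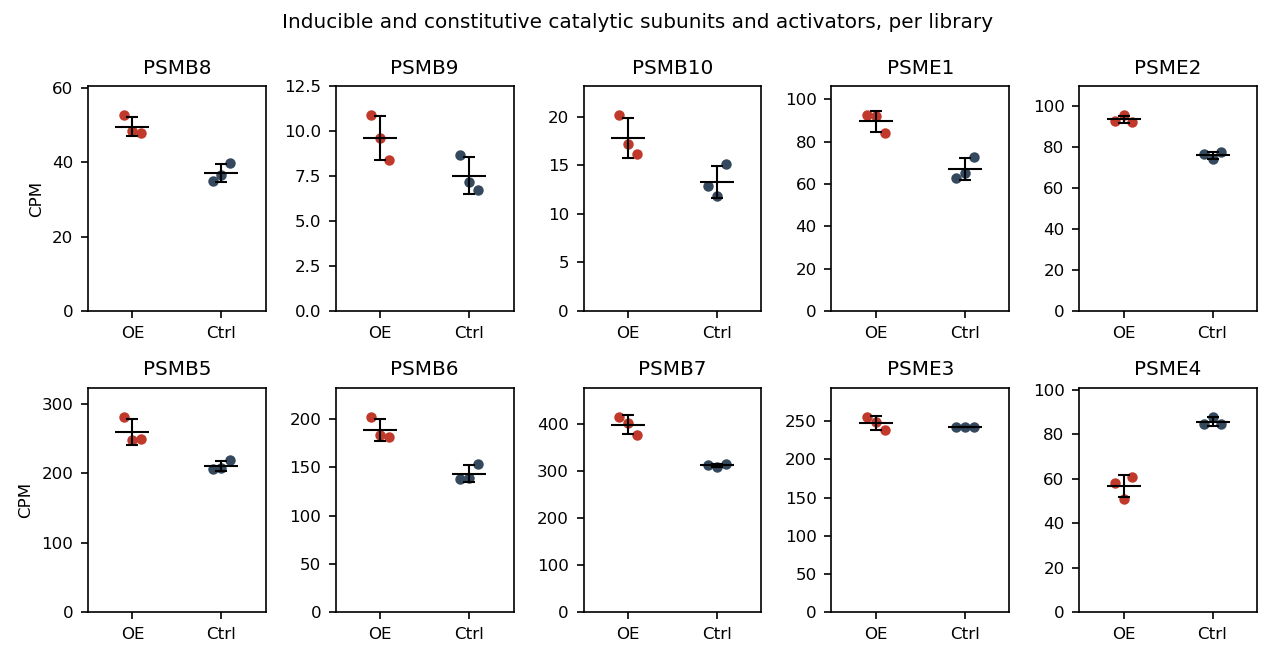
CPM (vertical axes, each from 0) of the inducible subunits, their constitutive counterparts and the activators in each library; dots are single libraries of OE (left, red) and Ctrl (right, dark), and the bar is the mean with its SD, n = 3. PSMB9 and PSME3 overlap between the groups, PSME4 is lower in every OE library, and the other 7 genes are higher in every OE library.

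Because a ratio of genes within a library does not depend on the scaling between libraries, each inducible subunit was set against its counterpart in counts per kilobase of canonical transcript. PSMB8 amounted to 17.4%, 18.1% and 17.8% of PSMB5 in OE libraries 1 to 3 and to 15.8%, 16.4% and 16.9% in Ctrl libraries 1 to 3. The groups did not overlap, with means of 17.7 ± 0.36% and 16.4 ± 0.59% (SD, n = 3 each), a log2 difference of 0.12 and p = 0.1 in a two-sided exact permutation test, the smallest that 3 against 3 can give (adjusted p = 0.3 over the 3 ratios). PSMB9 amounted to 4.35%, 4.24% and 3.75% of PSMB6 in OE libraries and to 5.08%, 4.17% and 3.55% in Ctrl libraries. These overlapped (log2 difference -0.04, exact permutation p = 1.00). PSMB10 amounted to 4.89%, 4.31% and 4.32% of PSMB7 in OE libraries and to 4.13%, 3.89% and 4.85% in Ctrl libraries, again with overlap (log2 difference 0.07, exact permutation p = 0.5). With corrected values the log2 differences were 0.08 for PSMB8, 0.03 for PSMB9 and -0.14 for PSMB10, with exact permutation p of 0.1, 1.00 and 0.2.

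**Figure D3:**
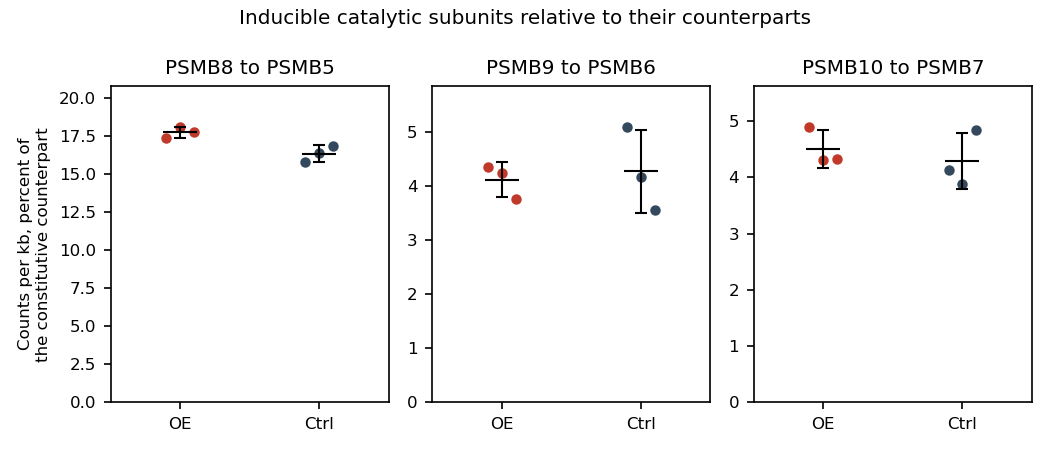
Each inducible catalytic subunit as a percentage of its constitutive counterpart, in counts per kilobase of canonical transcript (vertical axes, from 0), per library; dots are libraries of OE (left) and Ctrl (right), bars are means with SD, n = 3. PSMB8 is at 17.4% to 18.1% of PSMB5 in OE and 15.8% to 16.9% in Ctrl libraries, and the groups overlap for PSMB9 and PSMB10.

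The PA28 activator subunits, also interferon-responsive, rose. PSME1 (PA28 alpha) had 92.4, 92.3 and 83.8 CPM in OE libraries and 62.9, 65.4 and 72.7 CPM in Ctrl libraries, a log2 fold change of 0.42 (SE 0.06, adjusted p = 0.00111), and its corrected value was 0.22 (adjusted p = 0.0104). PSME2 (PA28 beta), its ring partner, had 92.5, 95.3 and 92.2 CPM in OE libraries and 76.2, 73.9 and 77.5 CPM in Ctrl libraries, a log2 fold change of 0.30 (SE 0.04, adjusted p = 0.000684). Neither gene overlapped between the groups. The corrected value of PSME2, 0.13 (adjusted p = 0.0258), did not pass without OE library 2 (adjusted p = 0.0765), OE library 3 (adjusted p = 0.0774) or any 1 of the Ctrl libraries 1 to 3 (adjusted p = 0.0660, 0.0977 and 0.0599). The genes lie 4394 bases apart on chromosome 14, PSME1 from 24136163 to 24138967 on the plus strand and PSME2 from 24143362 to 24147570 on the minus strand, and PSME2 has 6 pseudogenes named for it in GENCODE 44.

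The nuclear activators PSME3 and PSME4 were not higher. PSME3 (PA28 gamma), which activates degradation in the nucleus without ubiquitin, had 256, 250 and 238 CPM in OE libraries and 242, 243 and 242 CPM in Ctrl libraries, with overlapping groups (log2 fold change 0.03, adjusted p = 0.594; corrected 0.04). PSME4 (PA200), a large activator linked to histone turnover, showed the largest change of any member as fitted, though not after the correction, and fell to 57.9, 51.1 and 60.7 CPM in OE libraries, against 84.5, 87.8 and 84.4 CPM in Ctrl libraries. Its log2 fold change was -0.60 (SE 0.06, adjusted p = 0.000268), the corrected one -0.22 (SE 0.05, adjusted p = 0.0115); it stayed lower when any 1 library was left out of either fit. PSMF1 (PI31), a protein that binds the core and was first described as an inhibitor, had 246, 231 and 229 CPM in OE and 208, 211 and 212 CPM in Ctrl libraries (log2 fold change 0.16, adjusted p = 0.0130). That call was lost without Ctrl library 1 (0.15, adjusted p = 0.0579) or Ctrl library 2 (0.16, adjusted p = 0.0516), and the corrected value was 0.35 (adjusted p = 0.000652). PSME3IP1, which binds PSME3, was not called (log2 fold change 0.03, corrected 0.08).

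All 7 constitutive beta subunits were higher, by 1.09-fold (PSMB2) to 1.35-fold (PSMB3), with a median log2 fold change of 0.35. The same rule called 18.3% of all entries higher. PSMB3 had 214, 195 and 182 CPM in OE libraries and 151, 140 and 147 CPM in Ctrl libraries (log2 fold change 0.43, SE 0.06, adjusted p = 0.000698). PSMB4 had 436, 426 and 400 CPM in OE libraries and 317, 322 and 331 CPM in Ctrl libraries (log2 fold change 0.38, SE 0.04, adjusted p = 0.000350; corrected 0.17). PSMB1 rose by 0.26 (corrected 0.17). None of the 7 overlapped between the groups, where every OE library lay above every Ctrl library for 24.7% of all entries. After the correction 6 of the 7 were still higher, where 11.5% of all entries were. The corrected median of the 7 was 0.17, and PSMB5 was not called. PSMB3 (0.18 corrected) did not pass without Ctrl library 2 (0.17, adjusted p = 0.0514). PSMB2, at 0.12 as fitted, did not pass when any 1 of 5 libraries was left out of that fit (adjusted p of 0.0638 to 0.164), and had 0.32 after the correction (adjusted p = 0.000939).

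Alpha subunits, which form the outer rings and gate the channel, were mixed as fitted: 3 higher, 1 lower and 3 not called. Of all entries 18.3% were higher and 19.7% lower. PSMA6 had 140, 121 and 132 CPM in OE libraries and 107, 114 and 92.4 CPM in Ctrl libraries, without overlap (log2 fold change 0.32, SE 0.08, adjusted p = 0.0114). PSMA5 had 136, 135 and 133 CPM in OE libraries and 123, 119 and 124 CPM in Ctrl libraries (log2 fold change 0.14, adjusted p = 0.0160), not passing without Ctrl library 1 (0.15, adjusted p = 0.0522) or Ctrl library 2 (0.13, adjusted p = 0.0833). PSMA3 fell to 79.4, 78.7 and 77.8 CPM in OE libraries, against 92.3, 93.4 and 85.1 CPM in Ctrl libraries (log2 fold change -0.20, adjusted p = 0.00896). The rise of PSMA2 was 0.11 (adjusted p = 0.0406) and did not pass when any 1 library was left out (0.095 to 0.13, adjusted p of 0.0620 to 0.112).

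The correction left 5 alpha genes higher, PSMA5 at 0.49, PSMA6 at 0.38, PSMA2 at 0.32, PSMA4 at 0.27 and PSMA1 at 0.17, and turned PSMA7 to -0.17 (adjusted p = 0.00354; 0.04 as fitted), while PSMA3 was no longer called (-0.03). The correction called 11.5% of all entries higher and 11.1% lower. The corrected call of PSMA1 was lost without Ctrl library 1 (0.17, adjusted p = 0.0505) or Ctrl library 2 (0.15, adjusted p = 0.0583). PSMA1, PSMA2 and PSMA6 share 801, 1357 and 833 exon bases with entries of the table on the same strand, so that the counting could split their reads. With GC content alone PSMA7 was not called (-0.07).

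**Figure D4:**
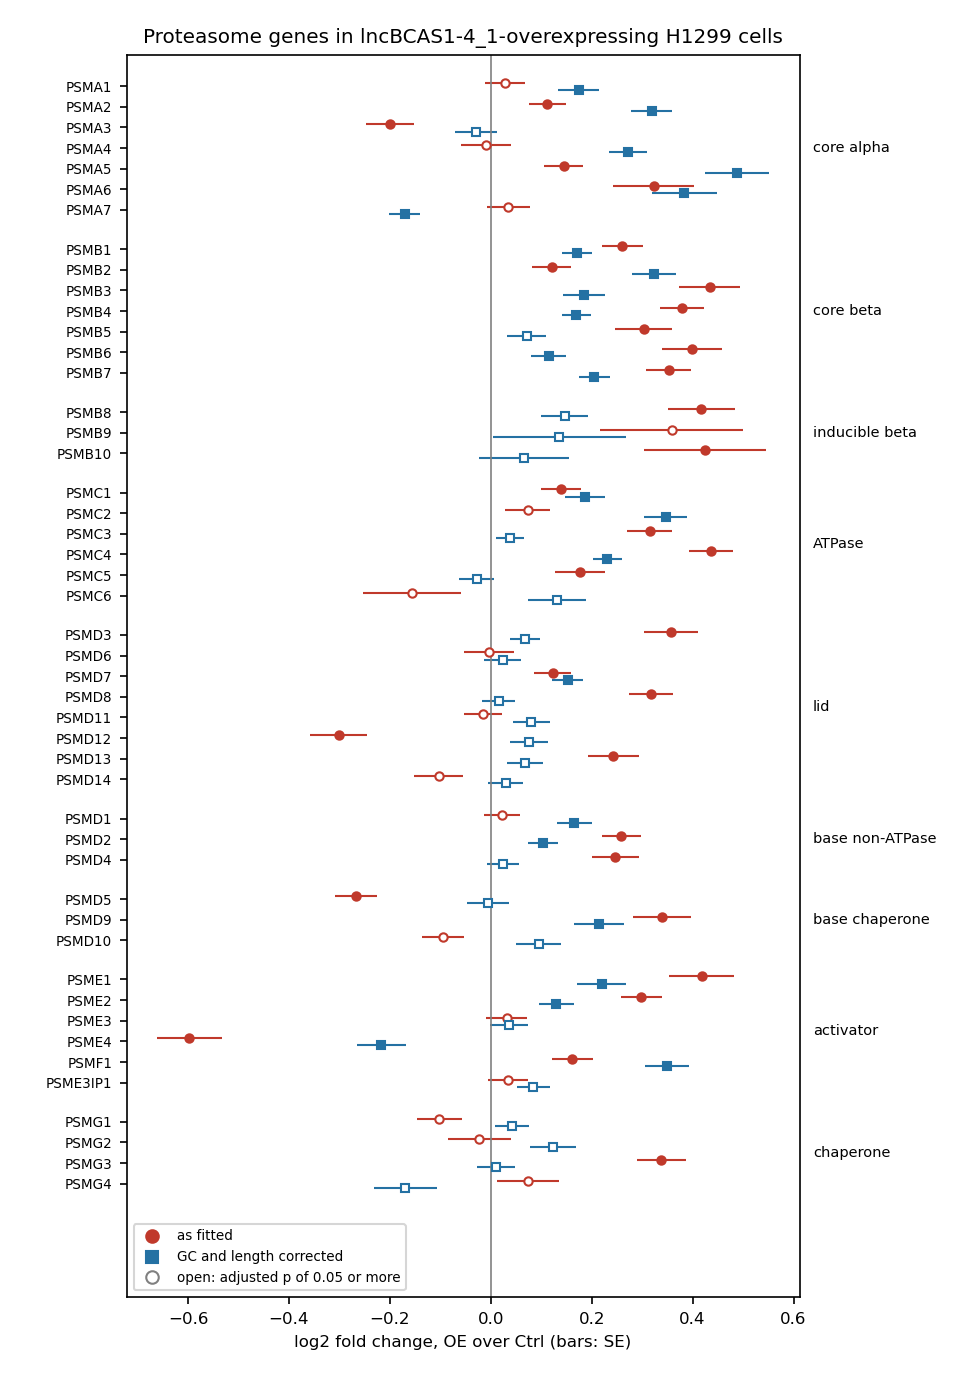
Log2 fold change (OE over Ctrl, horizontal axis) with its SE of each of the 47 proteasome genes by subunit type, as fitted (red circles) and after the GC and length correction (blue squares); filled symbols have an adjusted p under 0.05. The constitutive beta subunits lie between 0.12 and 0.43 as fitted, and PSME4 lies lowest at -0.60 as fitted and -0.22 corrected.

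Among the ATPases, which unfold substrates, 4 of 6 were higher and none lower, where 18.3% and 19.7% of all entries were. PSMC4 had 588, 586 and 542 CPM in OE libraries and 422, 415 and 432 CPM in Ctrl libraries, the largest rise of any member as fitted, next to PSMB3 and not after the correction (1.35-fold; log2 fold change 0.44, SE 0.04, adjusted p = 0.000226), with a corrected value of 0.23 (adjusted p = 0.000688). PSMC3 had 390, 373 and 359 CPM in OE libraries and 296, 293 and 313 CPM in Ctrl libraries (log2 fold change 0.31, adjusted p = 0.000832), but 0.04 after the correction (adjusted p = 0.382). PSMC5 had 440, 401 and 391 CPM in OE libraries and 361, 359 and 371 CPM in Ctrl libraries. In all 3 genes the groups were apart as fitted. The call of PSMC5 (0.18, adjusted p = 0.0196) was lost without Ctrl library 1 (0.17, adjusted p = 0.0708) or Ctrl library 2 (0.17, adjusted p = 0.0767), and its corrected value was -0.03. PSMC1 (0.14, corrected 0.19) has 13 named pseudogenes and shares 3654 exon bases with NRDE2 on the other strand, and the strandedness of the counting is not given in the sources used here. PSMC2 was called after the correction alone (0.35, against 0.07 as fitted), and PSMC6 in neither fit with all libraries, though without Ctrl library 3 it was lower as fitted (-0.27, adjusted p = 0.0130). The call of PSMC1 as fitted was lost without OE library 1 or any 1 of the Ctrl libraries (adjusted p of 0.0558 to 0.0785).

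In the lid, which holds the deubiquitinase PSMD14, 4 of 8 were higher and 1 lower, and in the rest of the base 2 of 3 were higher. Of all entries 18.3% were higher and 19.7% lower. PSMD3 had 316, 321 and 292 CPM in OE libraries and 234, 234 and 258 CPM in Ctrl libraries (log2 fold change 0.36, SE 0.05, adjusted p = 0.00101). PSMD8 had 839, 790 and 757 CPM in OE libraries and 638, 634 and 643 CPM in Ctrl libraries (log2 fold change 0.32, adjusted p = 0.000704). PSMD12 fell to 107, 105 and 120 CPM in OE libraries, against 141, 136 and 132 CPM in Ctrl libraries (log2 fold change -0.30, SE 0.06, adjusted p = 0.00273). None of these 3 overlapped between the groups as fitted, and none passed after the correction, at 0.07, 0.02 and 0.08. PSMD14 itself was not called (-0.10, corrected 0.03).

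After the correction 1 of the 8 lid subunits, PSMD7 (0.15), was higher and none lower, where 11.5% and 11.1% of all entries were. Of the 3 other base subunits 2 were higher, the scaffold PSMD1 (0.17) and the scaffold and ubiquitin-binding subunit PSMD2 (0.10). PSMD2 had 868, 845 and 816 CPM in OE libraries and 699, 695 and 720 CPM in Ctrl libraries (log2 fold change 0.26, adjusted p = 0.00100). Its corrected call (adjusted p = 0.0368) was lost without any 1 of 5 libraries, both of OE libraries 1 and 3 and all Ctrl libraries (adjusted p of 0.0582 to 0.130). PSMD7 (0.12 as fitted) did not pass as fitted without any 1 of 5 libraries, all but OE library 1 (adjusted p of 0.0529 to 0.117). The ubiquitin receptor PSMD4 was higher as fitted (0.25) and at 0.02 after the correction.

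Assembly chaperones showed no common direction. Of the chaperones of base assembly, PSMD9 had 87.6, 79.5 and 77.4 CPM in OE libraries and 64.5, 61.8 and 67.0 CPM in Ctrl libraries (log2 fold change 0.34, SE 0.06, adjusted p = 0.00172; corrected 0.21, adjusted p = 0.0139, and 0.19 with adjusted p = 0.0586 without Ctrl library 2). PSMD5 fell to 75.5, 76.7 and 75.01 CPM in OE libraries, against 93.2, 92.0 and 88.3 CPM in Ctrl libraries (log2 fold change -0.27, adjusted p = 0.00115), and was at -0.0050 after the correction. PSMD10, also known as gankyrin, was not called in either fit (-0.09, corrected 0.10). Of the core assembly chaperones, PSMG3 had 84.4, 78.6 and 78.0 CPM in OE libraries and 64.4, 61.2 and 65.0 CPM in Ctrl libraries (log2 fold change 0.34, adjusted p = 0.000854), with a corrected value of 0.01 (adjusted p = 0.888). PSMG1, PSMG2 and PSMG4 were not called in either fit.

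Core subunits, present in equal numbers in the particle, had unequal transcript levels. Among the 14 constitutive core genes the mean level per kilobase of canonical transcript ran from 35.3 ± 0.377 CPM per kb (PSMA5) to 609 ± 21.1 CPM per kb (PSMB1) in OE libraries and from 31.9 ± 0.703 to 508 ± 9.97 CPM per kb for the same genes in Ctrl libraries (SD, n = 3 each), a 17.2-fold and a 15.9-fold range. The low genes PSMA5, PSMA4 and PSMB2 have canonical transcripts of 3815, 4378 and 4426 bases, and a shorter form in use would raise their level per kilobase. The inducible subunits lay at 44.1 ± 2.35 (PSMB8), 9.46 ± 1.21 (PSMB9) and 18.3 ± 2.12 CPM per kb (PSMB10) in OE libraries and at 33.0 ± 2.25, 7.38 ± 1.01 and 13.6 ± 1.72 CPM per kb in Ctrl libraries. PSMB9 and PSMB10 were thus below all constitutive core genes in both groups, and PSMB8 was above PSMA5 in both and above PSMA4 in OE libraries.

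**Figure D5:**
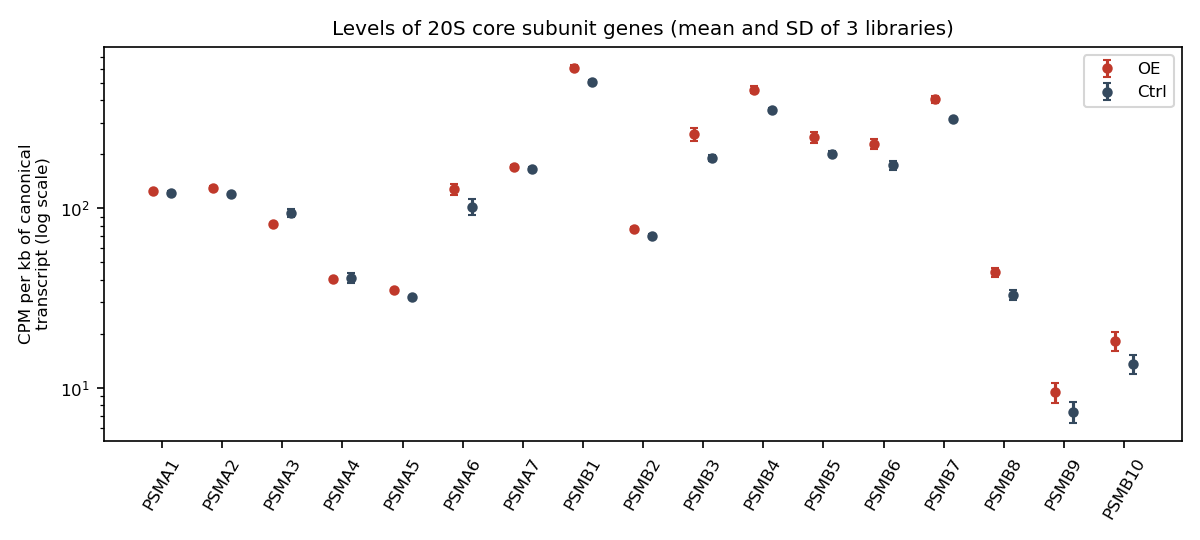
Mean level (CPM per kilobase of canonical transcript, log axis) with SD of the alpha, constitutive beta and inducible beta genes in OE (red, left of each pair) and Ctrl (dark, right) libraries, n = 3 each. PSMB1 is highest at 609 and 508 CPM per kb and PSMB9 lowest at 9.46 and 7.38 CPM per kb.

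Genes that control the inducible subunits were measured beside them. Of 14 measured genes of interferon signalling and of the control of the inducible subunits, 6 were higher and 1 lower (median log2 fold change 0.08). After the correction 4 were higher and none lower. Beside this list and each list below stand the shares over all entries, 18.3% higher and 19.7% lower as fitted, and 11.5% and 11.1% after the correction. IRF1, the interferon gamma-induced activator of PSMB8, PSMB9 and TAP1, had 30.0, 26.5 and 28.3 CPM in OE libraries and 17.9, 18.3 and 21.5 CPM in Ctrl libraries (1.47-fold, adjusted p = 0.00145; corrected log2 fold change 0.43, adjusted p = 0.00620). The groups did not overlap. STAT2, a transcription factor of the interferon receptors, rose 1.36-fold. IRF9, the DNA-binding partner of STAT2, rose 7.70-fold, to 6.64, 12.8 and 6.22 CPM in OE libraries, against 0.606, 1.66 and 1.06 CPM in Ctrl libraries, and the receptor gene IFNAR1 fell by 0.40 on the log2 scale and was not called once corrected (-0.05).

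Of 18 measured genes of class I antigen processing, 11 were higher and 2 lower (median log2 fold change 0.29); after the correction 9 were higher and none lower (median 0.19). TAP1 had 81.7, 85.3 and 78.3 CPM in OE libraries and 51.3, 52.3 and 57.2 CPM in Ctrl libraries (1.53-fold, adjusted p = 0.000170; corrected log2 fold change 0.36, adjusted p = 0.000198). The class I light chain B2M rose 1.43-fold (corrected log2 fold change 0.72) and HLA-E 1.45-fold (corrected 0.32). All 3 passed in both fits, whereas PSMB9, which shares its start region with TAP1, passed in neither; the difference between these genes was not tested. The aminopeptidases TPP2 and NPEPPS, which trim peptides in the cytosol, fell by 0.35 and 0.11 on the log2 scale, and were at 0.04 and 0.06 after the correction; NPEPPS lost its call without any 1 library (-0.13 to -0.097, adjusted p of 0.0549 to 0.141).

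The transcriptional control of constitutive subunits runs through NFE2L1, which is cut by the protease DDI2 after deglycosylation by NGLY1. NFE2L1 had 405, 432 and 400 CPM in OE libraries and 348, 341 and 363 CPM in Ctrl libraries (1.18-fold, adjusted p = 0.00301; corrected log2 fold change 0.14, adjusted p = 0.00984), without overlap. The corrected call was lost without Ctrl library 2 (0.13, adjusted p = 0.0552) and with GC content alone (0.06, adjusted p = 0.262). DDI2 fell to 34.6, 32.0 and 36.4 CPM in OE libraries, against 57.4, 54.6 and 49.2 CPM in Ctrl libraries (log2 fold change -0.65, adjusted p = 0.000322; corrected -0.22, adjusted p = 0.0133, and -0.18 with adjusted p = 0.0566 without Ctrl library 1). The small MAF genes, whose proteins pair with NFE2L1 and NFE2L2, rose: MAFF 2.07-fold, MAFK 1.48-fold and MAFG 1.32-fold, each also after the correction (log2 fold change 0.76, 0.30 and 0.27). NFE2L2 was not called (-0.11), but was lower without Ctrl library 3 (-0.18, adjusted p = 0.0329). BACH1, a repressor that competes for the same sites, fell by 0.56 on the log2 scale and had -0.13 after the correction (-0.19, adjusted p = 0.0440, without OE library 1). SEL1L fell by 0.25 as fitted (-0.22, adjusted p = 0.0530, without OE library 1) and was higher after the correction (0.22, adjusted p = 0.00680). Of the 15 genes of this list 7 were higher and 4 lower as fitted, and 6 were higher and 1 lower after the correction.

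Factors that bind or build the particle were split, with 5 of 15 higher and 5 lower, and 7 higher and 2 lower after the correction. The ubiquitin receptor ADRM1 rose 1.32-fold and ZFAND2A, a stress-induced partner of the particle, 1.73-fold; after the correction ZFAND2A passed (0.58) and ADRM1 did not (0.05). AKIRIN2, which carries proteasomes into the nucleus, rose by 0.28 and did not pass once corrected (0.14, adjusted p = 0.0871). The scaffold ECPAS, the ligase UBE3C and the deubiquitinase UCHL5 fell by 0.35, 0.26 and 0.52 on the log2 scale; after the correction UBE3C passed (-0.13), but not without OE library 2, Ctrl library 1 or Ctrl library 2 (adjusted p of 0.0558 to 0.0632). POMP, the core maturation factor, had 107, 95.1 and 96.3 CPM in OE libraries and 90.5, 91.4 and 87.8 CPM in Ctrl libraries. Its groups did not overlap, its log2 fold change of 0.15 did not pass (adjusted p = 0.0571; 0.18 and 0.0446 without OE library 2), and its corrected value of 0.42 did (adjusted p = 0.00230). Among 18 genes of ubiquitin supply and delivery 11 were higher and 5 lower (6 and 1 corrected). The segregase VCP had 1410, 1394 and 1333 CPM in OE libraries and 1085, 1104 and 1158 CPM in Ctrl libraries (log2 fold change 0.31, adjusted p = 0.000632; corrected 0.23), without overlap, and its adaptor NPLOC4 rose by 0.29. UBA6, RAD23B and UBQLN1 fell by 0.68, 0.23 and 0.25 on the log2 scale, and none of them passed after the correction.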

How the data were processed

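Per the labels' protocols, total RNA was isolated by TRIzol and fastp cleaned the reads; HISAT2 placed them on GRCh38, StringTie assembled transcripts and gffcompare merged them. These protocols describe FPKM values, whereas the deposited table holds whole-number counts per gene, not normalized; how these were counted, and with what strandedness, is not given in the sources used here. Counts were tested with edgeR 4.0.16 (R 4.3.3): TMM, filterByExpr (min.count 10), quasi-likelihood F-test on group over 19101 entries, Benjamini-Hochberg, adjusted p under 0.05; the SE is |log2 fold change| over √F. The correction entered natural splines (5 degrees of freedom) of GC content and log2 length of the GENCODE 44 canonical transcript, fitted per library, as offsets. Low counts limit precision little here, as every member had at least 603. The fits were also run on simulated counts, and the outcome is not reported here. Members and lists were chosen with earlier results of these data known. Named genes are the catalytic subunits, PSME1, PSME2, the largest called changes per subunit type (up to 3 each way), up to 3 each way per list by p, and a fixed set (among them IRF1, NFE2L1, NFE2L2, TAP1 and POMP); some genes that this rule names are not reported here. Other members were named after their values were seen. Alternatives were DESeq2 1.42.0, limma 3.58.1 (voom), other scalings, filters and call rules, a replicate block and leaving out each library. Within each group, pairs of libraries differed beyond sampling noise (chi-square over its degrees of freedom, 11.6 to 22.7).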

Additional observations from a re-analysis of the deposited data

How the results depend on the processing

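Depth limits little here, since no member had under 603 counts in any library. The median log2 fold change of the members was above 0 in every fit run. DESeq2 size factors, no filter, a stricter filter (CPM of at least 1), DESeq2 and limma-voom gave 27 or 28 members higher and 4 lower. These fits gave 3489 to 3852 entries higher and 3645 to 3941 lower. The GC and length correction gave 2193 entries higher and 2122 lower, with 2 members and 4 pathway genes lower. GC content alone gave 2462 entries, 1 member and 8 pathway genes lower, and library size alone 4274 entries and 7 members lower. Past 2-fold were 255 entries higher and 148 lower by adjusted p (338 and 226 by unadjusted p), 0 members and, of pathway genes, 2 higher and 0 lower by either. Leaving out 1 library gave 19 to 26 members higher and 4 to 5 lower, beside 2586 to 3439 entries higher and 2867 to 3730 lower. With the correction it gave 15 to 20 members higher (17 without Ctrl library 1, 15 without Ctrl library 2) and 2 lower. Deviations from the group mean had correlations of -0.036, -0.12 and -0.25 between same-numbered libraries, and of -0.078 to 0.18 between differently numbered ones. With means of only 3 libraries per group, these values cannot tell whether the numbers mark a shared culture or day. A replicate block gave 20 members higher and 4 lower (2681 and 3014 entries), and with the correction 18 and 2 (1741 and 1619 entries, 3 pathway genes lower). Where a member was called in at least 1 of the fits compared, signs turned with the GC and length correction for PSMA4 (0.27), PSMA7 (-0.17), PSMC5 (-0.028) and PSMD12 (0.076), also with the block (0.27, -0.17, -0.029 and 0.077), and with GC content alone for PSMA3 (0.13), PSMA4 (0.26), PSMC6 (0.25), PSMD6 (0.14), PSMD12 (0.086), PSMD14 (0.16), PSMD5 (0.048), PSMD10 (0.23), PSMG1 (0.16) and PSMG2 (0.27). The log2 ratio difference of PSMB9 turned to 0.027 and of PSMB10 to -0.14 with the correction, and that of PSMB9 lay between -0.17 and 0.095 over left-out libraries. The cause of each change was not tested.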

Other observations

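The third Ctrl library was above the other Ctrl libraries for some members and below them for others. Above them were PSMB6 (138, 139 and 153 CPM in Ctrl libraries 1 to 3) and PSME1 (62.9, 65.4 and 72.7 CPM), among others. Of the members where it was below, 3 are given here. All members given here were picked after their values were seen. The ATPase PSMC6 had 47.1, 42.4 and 48.4 CPM in OE libraries and 55.7, 54.9 and 43.1 CPM in Ctrl libraries 1 to 3, the alpha subunit PSMA6 107, 114 and 92.4 CPM in Ctrl libraries, and the alpha subunit PSMA4 188, 184 and 166 CPM. PSMC6 had the largest spread of any member in Ctrl libraries, a coefficient of variation of 13.8% where the median member had 2.80%, and PSMB9 had the largest in OE libraries, 12.8% where the median was 4.06%. PSME3 had the smallest in Ctrl libraries, 0.156%, and PSMA4 the smallest in OE libraries, 0.400%.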
